A study of Mus musculus with 19 samples.

Results

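Cytosolic ribosomal proteins are the protein parts of the large (60S) and small (40S) subunits of the ribosomes that translate nuclear messages. Their genes were followed here in 4 populations of sorted mouse CD4 T cells. The members are the genes whose name on the array is Rpl or Rps with a number (and an a, l or x where one follows), Rplp0 to Rplp2, or Rpsa. This rule used names only, and it found 83 of the 35018 gene names on the array, on 188 probes. Each gene was read from the probe with its highest mean signal. By role, 43 members encode large-subunit proteins, 31 encode small-subunit proteins, 3 encode the stalk proteins Rplp0, Rplp1 and Rplp2, and 6 are paralogs with names ending in l or l1. Of the 83, 81 were well above background on at least 4 of the 19 arrays and were tested, and 73 were well above background on all 19. The members not tested were Rpl3l, well above background on 0 arrays, and Rpl39l, on 1 array. Passing the filter required detection, so counts over the 81 are not counts over every member.

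The cells came from spleen and lymph nodes of adult female C57Bl/6 mice with the genotype Tg IL-2-GFP x FOXP3mRFP, so every population, controls included, carried a green reporter for the T cell growth factor IL-2 and a red one for Foxp3, the factor that defines regulatory T cells. The populations were GFP-RFP- (5 arrays), GFP+RFP- (5 arrays), GFP-RFP+ (5 arrays) and GFP+RFP+ (4 arrays, replicates 1, 3, 4 and 5). No treatment is named, and reporter colour alone separates the groups. The labels' cell type tag calls all samples conventional while their subtype calls the RFP+ samples regulatory. The labels do not say whether replicates are different mice, and the p-values here speak only of the spread among these samples, and that spread may be technical. The comparisons ask how message levels differ with the Foxp3 reporter and with the IL-2 reporter.

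Ribosomal protein genes are transcribed at high and similar rates in most growing cells, because the subunits are assembled from one copy of nearly every protein. Their messages begin with a terminal oligopyrimidine (TOP) tract, through which mTORC1 signalling sets their translation, so that protein output can shift with little change in message. In T cells, ribosome production increases on activation through the antigen receptor, and IL-2 is among the signals that reach mTORC1. Processed pseudogenes of ribosomal protein genes are abundant in mammalian genomes and resemble the coding sequences.

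Arrays differed in total signal. The share of probes well above background ranged from 22.01% to 44.9%, and 3 arrays had under 30% (GFP-RFP+ replicates 1 and 4 and GFP+RFP+ replicate 1). Unless stated otherwise, a level is the log2 processed signal minus the array's 75th percentile over probes well above background on all arrays, and a difference is a difference of mean levels on this log2 scale with its standard error (SE). Calls are genes whose limma p, adjusted by Benjamini-Hochberg over 20252 genes, was under 0.05. Of 6 CD4 T cell markers on the array, 4, Cd3d and Lck among them, were well above background on all 19 arrays. The same held for 2 of 5 myeloid and dendritic, 1 of 5 NK and CD8 T and 0 of 3 erythroid and platelet markers. Of 5 B cell markers, Pax5 was detected on all 19 arrays and Ms4a1 on 1. Cd79b was detected on every RFP- array, on 2 GFP-RFP+ arrays and on 2 GFP+RFP+ arrays, and it was called lower in GFP-RFP+ than in GFP-RFP- cells (-6.34 ± 1.51 SE, adjusted p = 0.0419, limma). Summed on the linear scaled scale, the B cell list ran from 0.111 to 1.03 on GFP-RFP- and from 0.00757 to 0.631 on GFP-RFP+ arrays. The myeloid and dendritic list ran from 6.06 to 8.06 on GFP-RFP-, 8.1 to 23.9 on GFP-RFP+ and 12.0 to 26.2 on GFP+RFP+ arrays. In the same order, the CD4 T cell list ran from 5.73 to 6.35, 7.10 to 17.6 and 2.93 to 6.03. All 3 erythroid and platelet markers were detected on some GFP-RFP- arrays, where their sum ran from 2.62 to 8.14. The part of these lists in the results was not tested. Foxp3 was 2.55 ± 1.11 (SE) higher in GFP-RFP+ than in GFP-RFP- cells (adjusted p = 0.188, limma), which does not pass the threshold, and the reporter groups are therefore those of the labels.

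The probes are 60 bases long, and what a probe reads depends on its sequence, so the ones that the results turn on are given here from the files (mm9 coordinates, sense strand of the message). A first set of 4 member probes closely resembles probes that the files give under other names at other places in the genome. Capitals mark the longest run of identical bases in each pair.
Rpl7a, chr2:26766632-26766986, plus strand: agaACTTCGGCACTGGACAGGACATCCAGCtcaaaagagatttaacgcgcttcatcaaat
Rpl7a look-alike, chr7:17084190-17084249, plus strand: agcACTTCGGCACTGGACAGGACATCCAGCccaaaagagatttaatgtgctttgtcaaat
Rps13, chr7:123475080-123475934, minus strand: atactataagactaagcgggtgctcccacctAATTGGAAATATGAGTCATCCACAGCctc
Rps13 look-alike (Gm12270), chr11:61019238-61019297, minus strand: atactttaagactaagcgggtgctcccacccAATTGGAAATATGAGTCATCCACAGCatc
Rplp0, chr5:116013404-116013463, plus strand: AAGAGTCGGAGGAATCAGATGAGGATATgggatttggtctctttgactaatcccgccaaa
Rplp0 look-alike, chr16:85645222-85645281, plus strand: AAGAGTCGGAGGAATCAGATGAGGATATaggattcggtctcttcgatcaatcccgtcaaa
Rps6, chr4:86500748-86500807, minus strand: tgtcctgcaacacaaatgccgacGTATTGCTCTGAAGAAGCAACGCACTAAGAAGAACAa
Rps6 look-alike, chr2:119013803-119013862, plus strand: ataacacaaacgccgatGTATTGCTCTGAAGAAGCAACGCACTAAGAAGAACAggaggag
The pairs agree at 54 of 60 bases for Rpl7a, 57 of 60 for Rps13, 54 of 60 for Rplp0, and 49 of the 54 that overlap for Rps6. The coordinates of the Rpl7a and Rps13 member probes cover more than 60 bases, as for a probe across a splice junction.

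A second set shows the probes whose readings set large or discordant differences. The Rpl23a probes adjoin each other on the genome.
Rpl23a probe 1, chr11:77994946-77995005, minus strand: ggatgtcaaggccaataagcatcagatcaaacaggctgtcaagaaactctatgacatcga
Rpl23a probe 2, chr11:77995006-77995065, minus strand: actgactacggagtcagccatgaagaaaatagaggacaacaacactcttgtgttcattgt
Rpl13a, chr7:52381388-52381529, minus strand: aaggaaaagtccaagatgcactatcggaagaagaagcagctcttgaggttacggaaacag
Rpl27, chr11:101304045-101304104, plus strand: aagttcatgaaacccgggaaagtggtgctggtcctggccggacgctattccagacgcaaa

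In all, 71 probes under names that are no member shared a run of at least 20 identical bases with the chosen probe of a member, and 34 of the 83 members had at least 1 such look-alike. Over the 19 arrays the level of the look-alike and that of the member correlated at a median r of 0.97, with a range of 0.697 to 0.998. The r was 0.994 for the Rpl7a pair, 0.998 for Rps13, 0.987 for Rplp0 and 0.98 for Rps6. By comparison, pairs of probes of 1 member that share no such run (91 pairs) had a median r of 0.548, and pairs of different members detected on all arrays (2628 pairs) a median r of 0.299. The arrays in each pair are the same, so these values describe the arrays and carry no test. The chosen probe and a similar copy therefore gave nearly one reading, and the values below are those of a probe and of whatever sequence it binds. For Rpl36, Rps27, Rps29 and Rps4x, 4 of the 82 members found in the RefSeq gene table, the files place the chosen probe on another chromosome (X, 9, 2 and 3) than the table places the gene.

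The members were well above background nearly everywhere. Of 83 members, 79 were detected on every array of the GFP-RFP- group. The corresponding number was 77 for GFP+RFP-, 74 for GFP-RFP+ and 76 for GFP+RFP+ cells. A single array showed 75 to 81 detected members. The mean was 80.2 ± 0.447 (SD, n = 5) for GFP-RFP- and 79.2 ± 1.30 (SD, n = 5) for GFP+RFP- cells. Among RFP+ cells it was 77.2 ± 1.64 (SD, n = 5) without and 78.0 ± 1.83 (SD, n = 4) with the GFP reporter. By role, 41 of 43 large-subunit members, 29 of 31 small-subunit members and 3 of 3 stalk members were detected on all 19 arrays, against 0 of 6 paralogs.

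Unscaled, the members were dimmer on the RFP+ arrays. The median processed signal of the 81 tested members, in linear units, was 67846 ± 8971 (SD, n = 5) in GFP-RFP- cells and 58191 ± 7465 (SD, n = 5) in those with GFP alone. In cells with RFP alone it was 38956 ± 10773 (SD, n = 5), and with both reporters 26706 ± 10017 (SD, n = 4). The highest GFP-RFP+ array (53977) lay inside the range of the GFP-RFP- arrays (52809 to 76420). The percentile used for scaling moved with it: its mean was 14927 with neither reporter, 12753 with GFP alone, 7017 with RFP alone and 5265 with both. After scaling, the array medians of the members overlapped between all 4 populations. They ran from 2.11 to 2.32 with neither reporter, from 2.03 to 2.65 with GFP alone, from 2.2 to 2.91 with RFP alone and from 1.92 to 2.77 with both. The chosen member probes held 3.71% ± 0.209 (SD, n = 5) of the signal of all probes with neither reporter and 3.81% ± 0.379 (SD, n = 5) with GFP alone. The share was 4.01% ± 0.519 (SD, n = 5) with RFP alone and 3.42% ± 0.752 (SD, n = 4) with both. These shares need no scaling, and their ranges over arrays overlapped between all 4 populations. In bulk samples, fewer cells, less RNA per cell and differences in the amplification or labelling of the samples cannot be told apart.

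**Figure D1:**
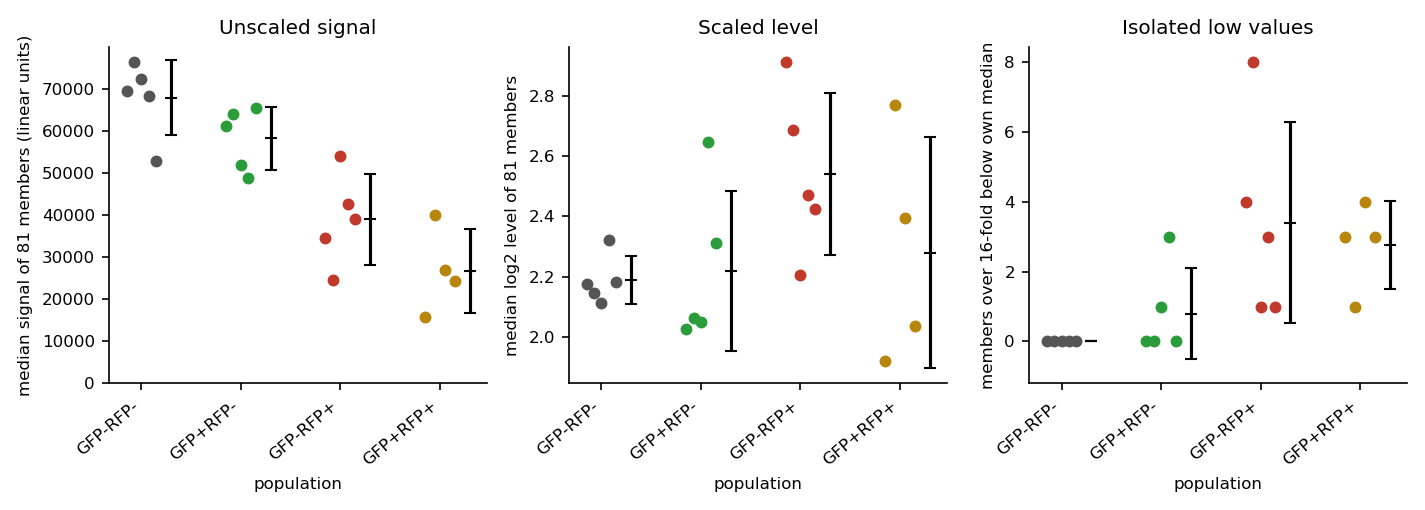
Array-wide readings of the ribosomal protein genes on each of the 19 arrays, by population: the median processed signal of the 81 tested members in linear units (left), the median log2 level after scaling (middle), and the number of members more than 16-fold below their own median over arrays (right). Points are arrays and the bars beside them give the mean and SD; unscaled signal is lower on most RFP+ arrays, the scaled medians overlap, and GFP-RFP- arrays show 0 isolated low values.

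The spread of the scaled levels between replicates differed among populations. The median SD of a tested member's level was 0.151 with neither reporter, 0.322 with GFP alone, 0.472 with RFP alone and 0.495 with both. Over the 5405 genes detected on all arrays the corresponding medians were 0.431, 0.514, 0.912 and 0.758. Members with an SD over 1 numbered 3, 7, 17 and 19 in the same order. The members' median SD was below that of the detected genes in each population, and in both it was higher on RFP+ than on RFP- arrays.

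Part of this spread came from isolated low values on single arrays. A value more than 4 log2 units (16-fold) below the member's own median over arrays occurred 32 times in 1539 readings: 0 of 405 with neither reporter, 4 of 405 with GFP alone, 17 of 405 with RFP alone and 11 of 324 with both. The threshold was chosen after the values were seen. These readings fell in 11 members, of which Rps27l and Rpl22l1 are paralogs; the others were Rps10, Rpl7a, Rps14, Rpl32, Rpl18, Rpl23a, Rpl27, Rpl37 and Rplp2. GFP-RFP+ replicate 2 held 8 of them. The same criterion applied to all tested genes marked a mean of 1.31% of genes on an array with neither reporter, 2.93% with GFP alone, 8.52% with RFP alone and 6.86% with both.

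**Figure D2:**
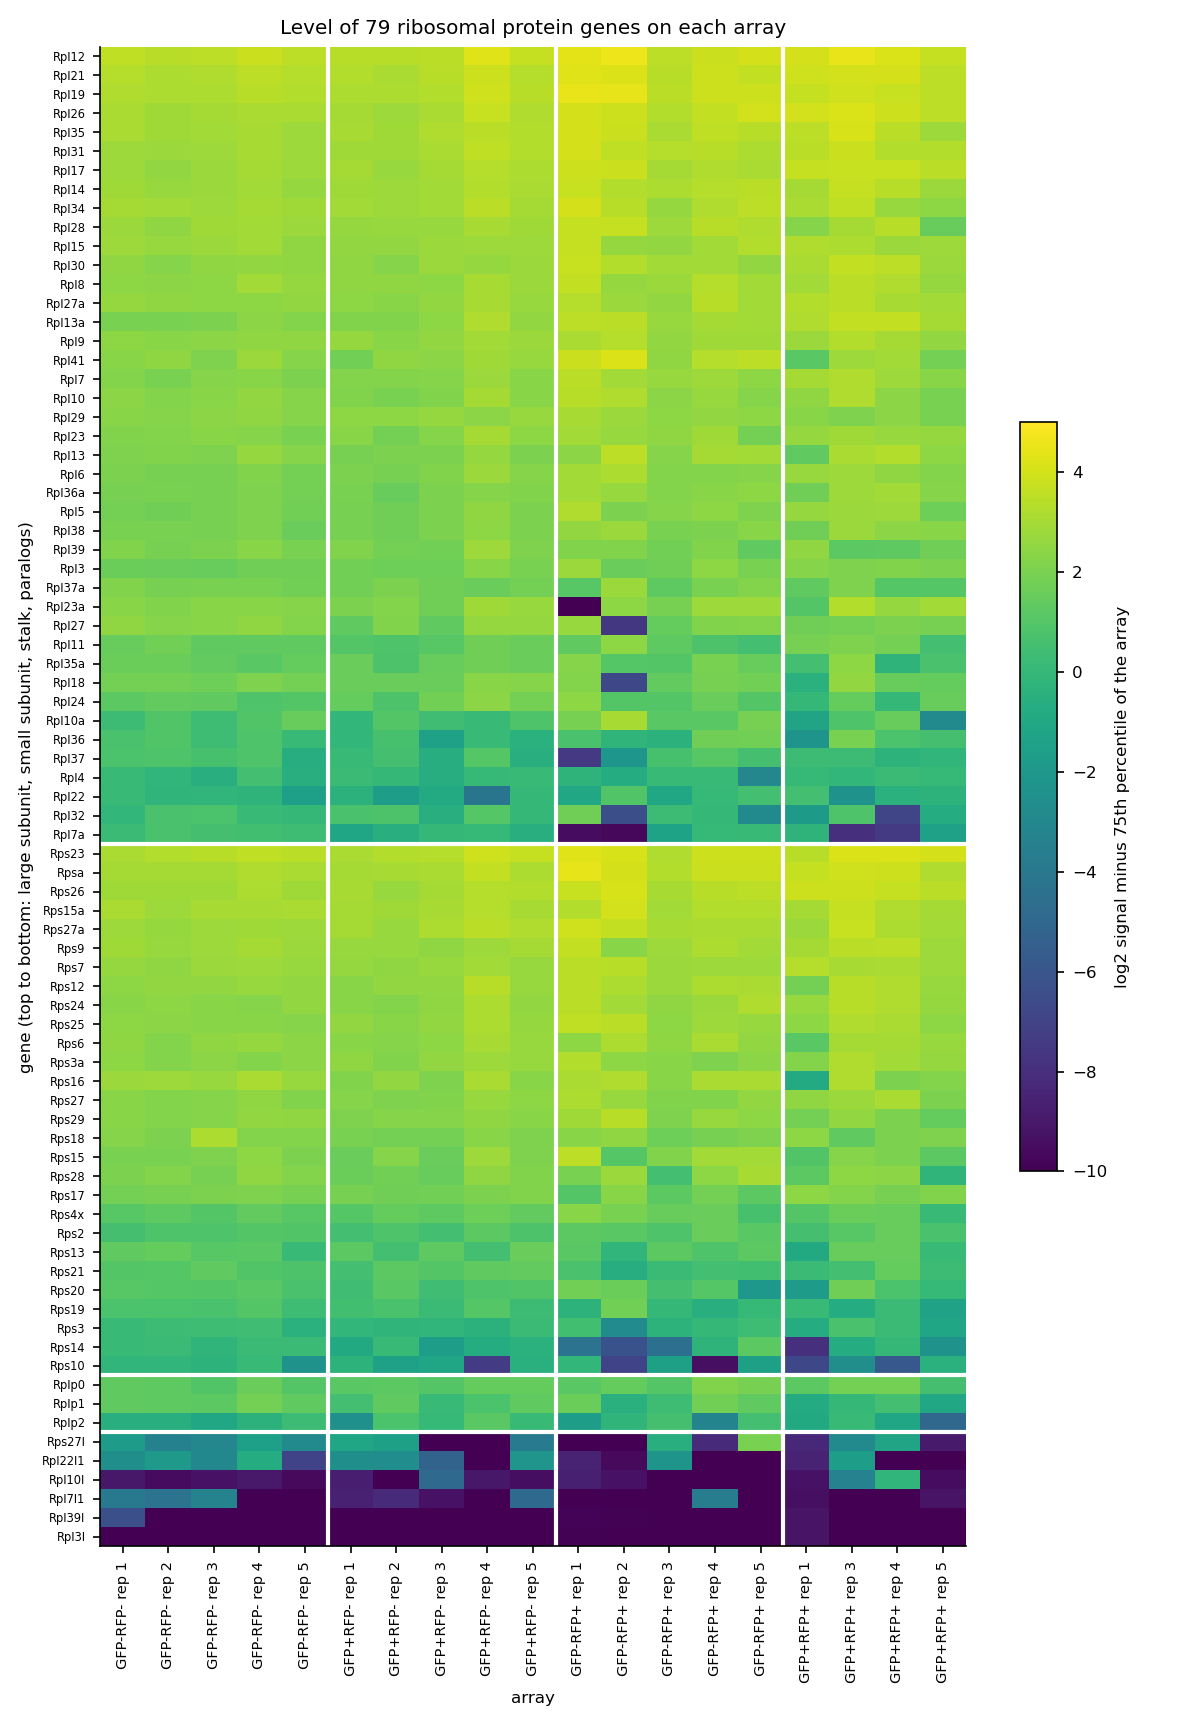
Log2 level of 79 of the 83 members (rows, grouped as large subunit, small subunit, stalk and paralogs) on each of the 19 arrays (columns, grouped by population). Colour compares arrays within a row, since brightness between rows also depends on the probe; isolated dark cells, such as Rpl23a on GFP-RFP+ replicate 1 and Rpl27 on GFP-RFP+ replicate 2, stand out among even rows.

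The comparison of GFP-RFP+ with GFP-RFP- cells asks how regulatory and conventional cells without the IL-2 reporter differ. In it, 0 of 81 members were called (limma, adjusted p under 0.05), against 1.96% of all genes tested (396 genes, 105 higher and 291 lower). That split over all genes moved with processing as well, to 3714 higher and 722 lower after normexp, 3181 and 518 with the 75th percentile over all probes, 2602 and 642 after quantile normalization, and 4 and 1978 without scaling. At an unadjusted p under 0.05 there were 12 members, 9 higher and 3 lower in GFP-RFP+ cells, which is 14.8% of members, beside 22.5% of all genes. The smallest adjusted p among members was 0.108. The median difference of the 81 members was 0.34, with 55 above 0, and that of all genes was -0.35, with 41.8% above 0. Among genes detected on all arrays the medians were 0.38 for 73 members and 0.23 for 5405 genes.

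The sign of this median rested on the scaling. It was 1.65 with the 75th percentile taken over all probes, -0.17 after quantile normalization, -0.16 in the authors' series table, -0.05 with the mean of a gene's probes and -0.85 without scaling, where 0 of 81 members were above 0. Called members numbered 14 higher with the percentile over all probes, 8 higher after normexp background correction, 9 higher with a trended robust prior, 4 higher among genes detected on all arrays (Rpsa, Rpl13a, Rpl19 and Rpl26) and 6 lower without scaling. No direction of the members as a group is therefore given for this comparison.

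**Figure D3:**
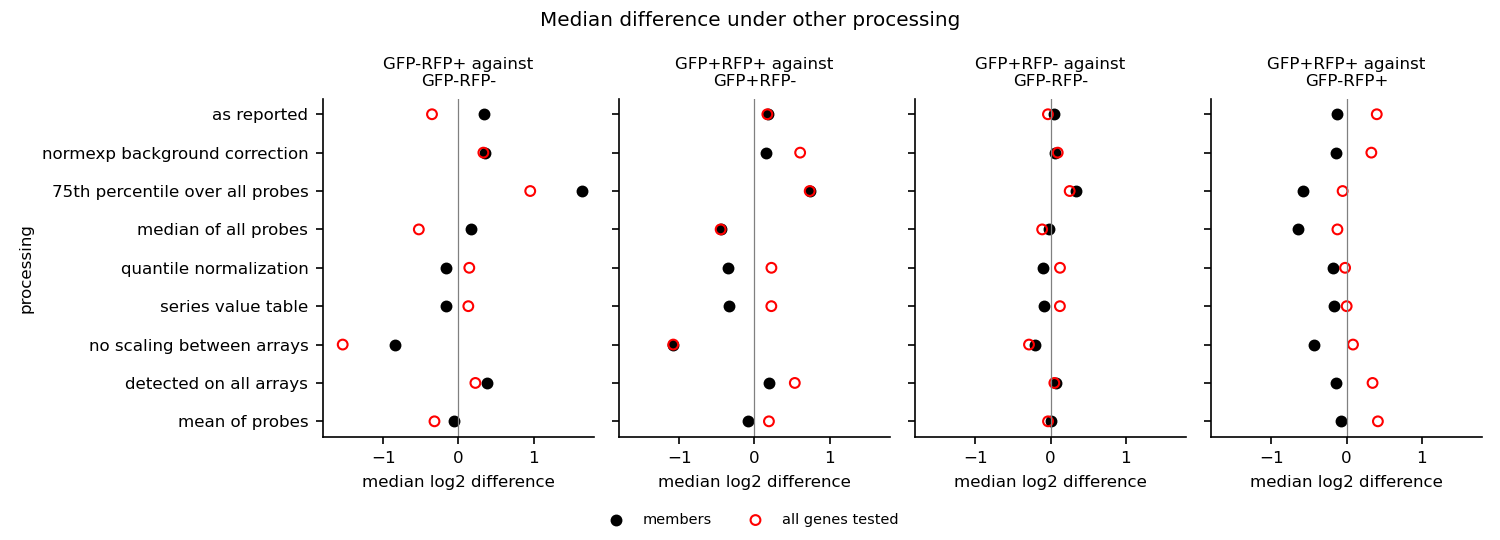
Median log2 difference of the ribosomal protein genes (filled) and of all genes tested (open) in the 4 comparisons, as reported and under 8 other ways of processing the same arrays. In GFP-RFP+ against GFP-RFP- cells the members' median runs from -0.85 without scaling to 1.65 with the percentile over all probes.

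Overlap between groups was counted without a model of the spread. In GFP-RFP+ against GFP-RFP- cells, 18 of 81 members (22.2%) had every GFP-RFP+ value above every GFP-RFP- value, against 4.01% of all genes, and 2 (Rpl7a and Rps21) had every value below, against 2.67%. The 18 were 12 large-subunit members (among them Rpl6, Rpl7, Rpl9, Rpl13a, Rpl14, Rpl19, Rpl26, Rpl30, Rpl31, Rpl35 and Rpl36a) and 6 small-subunit members (among them Rps12, Rps25, Rps27a and Rpsa), with differences of 0.51 to 0.98. Among genes detected on all arrays the shares were 24.7% of 73 members and 10.4% of 5405 genes. This count also moved with the scaling. After normexp 22 members lay above (27.2%, against 17.1% of all genes). With the percentile over all probes 0 members did (against 11.1%), and with the median over all probes 0 (against 3.37%). After quantile normalization 1 member lay above (1.23%, against 9.06%) and 11 below (13.6%, against 2.09%). Without scaling 0 members lay above (against 0.148%) and 22 below (27.2%, against 9.5%).

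Rpl13a had the smallest adjusted p. It encodes a large-subunit protein that is also part of an interferon-induced complex which silences translation of selected messages. Its levels were 2.01, 1.98, 2.06, 2.37 and 2.21 on GFP-RFP- replicates 1 to 5. On the 5 GFP-RFP+ arrays they were 3.53, 3.45, 2.69, 2.95 and 2.90. Every GFP-RFP+ value was above every GFP-RFP- value, and the fitted difference was 0.98 ± 0.33 (SE, adjusted p = 0.108, limma). Values on GFP+RFP- arrays were 2.14, 2.17, 2.45, 3.19 and 2.58, and on GFP+RFP+ arrays 3.19, 3.6, 3.65 and 2.95. Those populations overlapped at GFP+RFP- replicate 4, and their difference was 0.84 ± 0.35 (SE, adjusted p = 0.232, limma).

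The other Rpl13a probes read the opposite way. The files place both of them downstream of the chosen probe in the message, at chr7:52381146-52381205 and chr7:52380920-52380948. Probe 2 stood between 0.78 and 1.15 on the 5 GFP-RFP- arrays, and at -8.42, -9.88, 0.65, -1.65 and 0.93 on the 5 GFP-RFP+ arrays. Its fitted difference was -4.59 ± 2.08 (SE) and that of probe 3 was -4.40 ± 2.01 (SE), with adjusted p of 0.212 and 0.216 over probes (limma). On GFP-RFP+ replicates 1 and 2 the chosen probe gave its highest readings of that group while both downstream probes read -8.42 or lower. The correlation of the chosen probe with probe 2 over the 19 arrays was -0.511, and with probe 3 it was -0.503.

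Rpsa, the small-subunit protein also known as the laminin receptor precursor, stood at 2.99, 2.99, 2.98, 3.19 and 3.07 on GFP-RFP- replicates 1 to 5. On GFP-RFP+ arrays it stood at 4.46, 4.04, 3.25, 3.82 and 3.81. The groups did not overlap, and the difference was 0.83 ± 0.31 (SE, adjusted p = 0.141, limma). Over the 3 probes of Rpsa the difference ran from -0.20 to 0.83. Rpl41, which encodes a very short basic protein of the large subunit, read 2.35, 2.53, 2.08, 2.74 and 2.25 on GFP-RFP- and 3.79, 4.19, 2.53, 3.35 and 3.48 on GFP-RFP+ arrays. Its groups overlapped at GFP-RFP+ replicate 3, and the difference was 1.08 ± 0.42 (SE, adjusted p = 0.148, limma). Rpl10a (1.04) and Rpl19 (0.77) completed the 5 highest differences, with adjusted p of 0.372 and 0.167 (limma). Rpl19 belongs to the 18 members without overlap and Rpl10a does not.

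The lowest differences in this comparison came from members with isolated low values. Rpl7a, a large-subunit protein, read 0.23, 0.70, 0.57, 0.47 and 0.37 on GFP-RFP- arrays. On GFP-RFP+ arrays it read -9.50, -9.66, -1.31, 0.05 and 0.17, so that 2 arrays made up most of a difference of -4.52 ± 1.92 (SE, adjusted p = 0.18, limma). Probe 2 of Rpl7a, downstream at chr2:26768730-26768789, read 1.40 on GFP-RFP+ replicate 2, where the chosen probe read -9.66, and -5.96 on replicate 4, where the chosen probe read 0.05. All 4 Rpl7a probes had negative differences, from -4.52 to -2.24, but their low arrays differed, and the chosen probe correlated with the other 3 at 0.223 to 0.389. Its look-alike at the other locus, printed above, followed it at 0.994.

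Rpl23a, which sits at the exit of the peptide tunnel, read 2.36, 2.15, 2.33, 2.36 and 2.30 on GFP-RFP- arrays. On GFP-RFP+ arrays it read -9.95, 2.47, 1.90, 2.78 and 2.81. A single array therefore carried the difference of -2.30 ± 1.76 (SE, adjusted p = 0.461, limma). On that array the adjoining probe 2 read 0.98, a gap of -10.92 between probes that touch on the genome. On the other 18 arrays the gap between probes 1 and 2 ran from -0.15 to 0.71. Rpl27, another large-subunit gene, read -7.59 on GFP-RFP+ replicate 2, while the other GFP-RFP+ arrays read 1.48 to 2.68. Its probe 2 was also low on that replicate (-10.14), and further low on replicates 1 (-9.91) and 5 (-11.1), where the chosen probe was not.

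**Figure D4:**
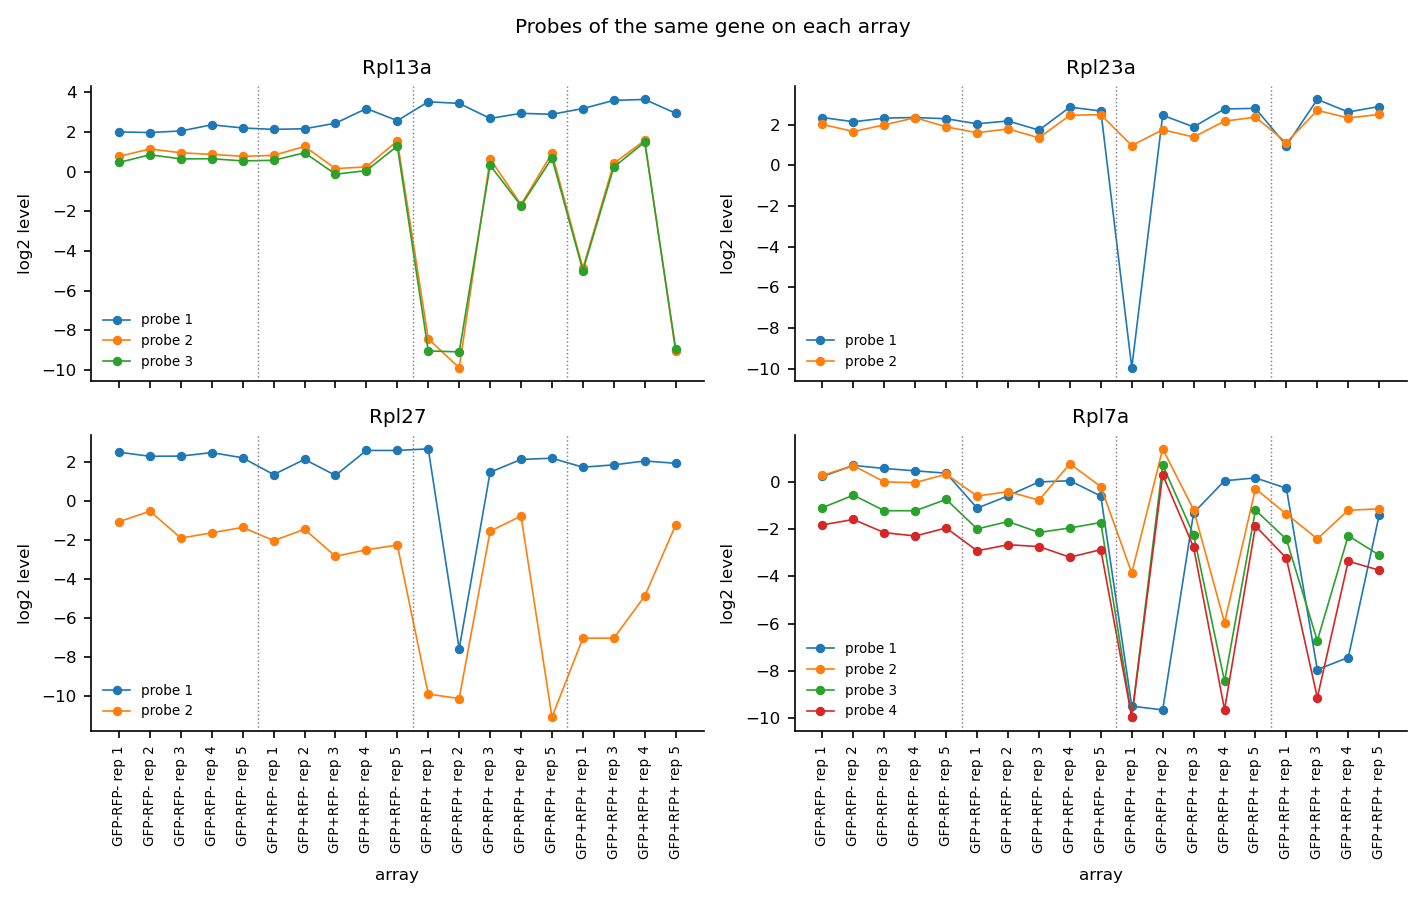
Log2 level of every probe of Rpl13a, Rpl23a, Rpl27 and Rpl7a on the 19 arrays, ordered by population (dotted lines); probe 1 is the brightest and is the one used for the gene. Probes of 1 gene run together on the GFP-RFP- arrays and part on RFP+ arrays. For Rpl23a they part on a single array, by -10.92 on GFP-RFP+ replicate 1, and for the other genes on several.

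Across members with more than 1 tested probe (58 genes), the probes' differences in GFP-RFP+ against GFP-RFP- cells had opposite signs in 31 genes. Their lowest and highest values lay a median of 0.84 apart, and the widest gap was 6.82. In GFP+RFP- against GFP-RFP- cells the median gap was 0.21, with opposite signs in 23 genes. None of the 181 tested member probes was called in any of the 4 pairwise comparisons (0 probes each, limma over all probes).

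Rps10 and Rps14 were the small-subunit members with the lowest differences. Rps10, a site of ubiquitination on collided ribosomes, read -0.05, -6.99, -1.47, -9.41 and -1.49 on GFP-RFP+ arrays and from -2.36 to 0.12 on GFP-RFP- arrays. The difference was -3.32 ± 1.79 (SE, adjusted p = 0.278, limma). Rps14, at the platform of the small subunit, read -4.26, -6.25, -4.54, -0.27 and 1.20 on GFP-RFP+ and from -0.18 to 0.25 on GFP-RFP- arrays, a difference of -2.97 ± 1.41 (SE, adjusted p = 0.223, limma). For Rps10, 2 GFP-RFP+ arrays read far below the GFP-RFP- range and the others inside it. For Rps14, 3 GFP-RFP+ arrays read far below that range and replicate 5 above it. Rps21 was lower on every GFP-RFP+ array (-0.66 to 0.67) than on every GFP-RFP- array (0.79 to 1.35), with a difference of -0.79 ± 0.37 (SE, adjusted p = 0.212, limma).

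Differences between GFP-RFP+ and GFP-RFP- cells went with the brightness of the probe, here its mean level on the GFP+RFP- arrays, which this comparison does not use. The 41 tested members with the brighter probes had a median difference of 0.55, with 40 of 41 above 0. The 40 with the dimmer probes had a median of -0.22, with 15 of 40 above 0. Of all genes tested 41.8% were above 0, and of the 5405 genes detected on all arrays 60.4%. Whether other genes of like brightness differ in the same way was not tested. These signs also rested on the scaling, with 15 of 81 members above 0 after quantile normalization and 0 of 81 without scaling. Over the 81 members brightness and difference correlated at Pearson r = 0.638 and Spearman rho = 0.729. This is a description across genes, chosen after the values were seen, and carries no test, and a probe's brightness is not the abundance of its message. By mean level over all 19 arrays, which includes the readings compared, the 8 brightest chosen probes were those of Rpl12, Rps23, Rpl21, Rpl19, Rpl26, Rpsa, Rps26 and Rpl35, with differences of 0.5 (Rpl12) to 0.83 (Rpsa). The 8 dimmest tested were those of the 4 tested paralogs and of Rps10, Rpl7a, Rps14 and Rplp2, with differences of -5.39 (Rpl22l1) to -0.36 (Rplp2). All 8 bright probes had adjusted p of 0.141 or more and all 8 dim ones 0.156 or more (limma).

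Comparing GFP+RFP+ with GFP+RFP- cells addresses the same question among cells with the IL-2 reporter. Again 0 of 81 members were called (limma), against 0.222% of all genes (45 genes). At an unadjusted p under 0.05 there were 4 members (4.94% of members, against 17.1% of all genes). Among them Rpl13a and Rpl26 were higher and Rplp1 was lower. The median difference was 0.18 over members, with 48 of 81 above 0, and 0.17 over all genes. It was 0.74 with the percentile over all probes, -0.35 after quantile normalization, -0.45 with median centring and -1.08 without scaling, so the direction of the group is not given here either. Without overlap, Rpl17 and Rps26 lay higher (2 of 81, 2.47%, against 6.18% of all genes) and Rpl29 and Rps19 lower (2 of 81, 2.47%, against 1.47%).

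Rps19, mutated in Diamond-Blackfan anaemia, read 0.44, 0.71, 0.22, 1.02 and 0.31 on GFP+RFP- and 0.14, -0.74, 0.20 and -1.34 on GFP+RFP+ arrays. Its groups did not overlap, by a margin from 0.20 to 0.22, and the difference was -0.98 ± 0.48 (SE, adjusted p = 0.304, limma).

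The other large differences came from few arrays. Rpl7a read -0.27, -7.95, -7.44 and -1.41 on GFP+RFP+ arrays and -1.11 to 0.05 on GFP+RFP- arrays, a difference of -3.82 ± 2.03 (SE, adjusted p = 0.343, limma). Rpl32 read -1.8, 0.85, -6.85 and -0.74 on GFP+RFP+ arrays and -0.61 to 1.02 on GFP+RFP- arrays, a difference of -2.52 ± 1.47 (SE, adjusted p = 0.386, limma). In both genes the GFP+RFP+ replicates split into readings near the GFP+RFP- level and readings far below it. On the high side, after the paralog Rpl10l, stood Rpl13a (0.84), Rpl22 (0.75) and Rpl26 (0.70), all with adjusted p of 0.232 or more. Over the tested probes of these genes the lowest differences were -3.79 for Rpl13a, -0.72 for Rpl22 and -0.35 for Rpl26.

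The comparison of GFP+RFP- with GFP-RFP- cells asks what goes with the IL-2 reporter in conventional cells. Called members numbered 0 of 81 (limma), against 0.00494% of all genes (1 gene), and 0 members reached an unadjusted p under 0.05, beside 5.25% of all genes. The differences of 77 of 81 members lay within 1 of 0. The median was 0.05 over members and -0.03 over all genes, and it stayed between -0.04 and 0.10 when single arrays were left out. It was 0.34 with the percentile over all probes (67 of 81 above 0), 0.24 within slide 3 and -0.20 without scaling (9 of 81 above 0), so its direction also rested on the processing. The standard error was 0.34 for the median member and 1.10 for the median gene. Rpl7a was the one member without overlap, lower (1 of 81, 1.23%, against 0.746% of all genes), and 0 were higher (against 1.67%). The 4 members more than 1 below 0 were Rps27l, Rpl22l1, Rps10 and Rpl7l1, 3 of them paralogs. The highest differences were those of Rpl10l (0.90), Rpl24 (0.49), Rplp2 (0.38), Rpl13a (0.38) and Rps27a (0.31), each with adjusted p = 1 (limma).

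Comparing GFP+RFP+ with GFP-RFP+ cells asks the same in the RFP+ cells. Called members numbered 0 of 81 (limma), against 0.0296% of all genes (6 genes). Members at an unadjusted p under 0.05 numbered 7, among them Rpl10l, which was higher, and Rpl10a, Rpl28, Rpl41, Rplp1 and Rps16, which were lower. They make up 8.64% of members, beside 5.29% of all genes. The median was -0.12 over members, with 33 of 81 above 0, and 0.40 over all genes. Without the 3 arrays under 30% detected it was 0.09, with 50 of 81 above 0. Rpl29 was lower without overlap (1 of 81, 1.23%, against 0.212% of all genes), and 0 members were higher (against 0.81%).

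Rpl10a read 1.93, 3.03, 1.17, 1.16 and 1.91 on GFP-RFP+ arrays. On GFP+RFP+ arrays it read -1.26, 0.89, 1.5 and -2.86, overlapping at replicate 4. The difference was -2.27 ± 0.71 (SE, adjusted p = 0.743, limma), and the gene's other probe gave nearly the same readings (r = 0.99 over 19 arrays). Rpl41 differed by -1.29 ± 0.44 (SE, adjusted p = 0.806, limma), with 1.17, 2.79, 2.91 and 1.85 on GFP+RFP+ arrays. Rps16 differed by -1.31 ± 0.59 (SE, adjusted p = 0.926, limma), for which GFP+RFP+ replicate 1 at -0.81 stood far below the other three (2.04 to 3.19). Positive differences of Rpl23a (2.43), Rpl27 (1.72), Rpl37 (1.5) and Rpl18 (1.14) stand beside the low GFP-RFP+ arrays of these genes (replicate 1 for Rpl23a and Rpl37, replicate 2 for Rpl27 and Rpl18). This comparison shares its GFP-RFP+ arrays with the first one.

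The interaction, the difference between the IL-2 reporter's differences in RFP+ and RFP- cells, was called for 0 of 81 members (limma), against 0.00988% of all genes (2 genes). The interaction of Rpl41 was -1.34 ± 0.61 (SE), with an adjusted p of 0.999 (limma). The median was -0.15 over members and 0.41 over all genes.

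**Figure D5:**
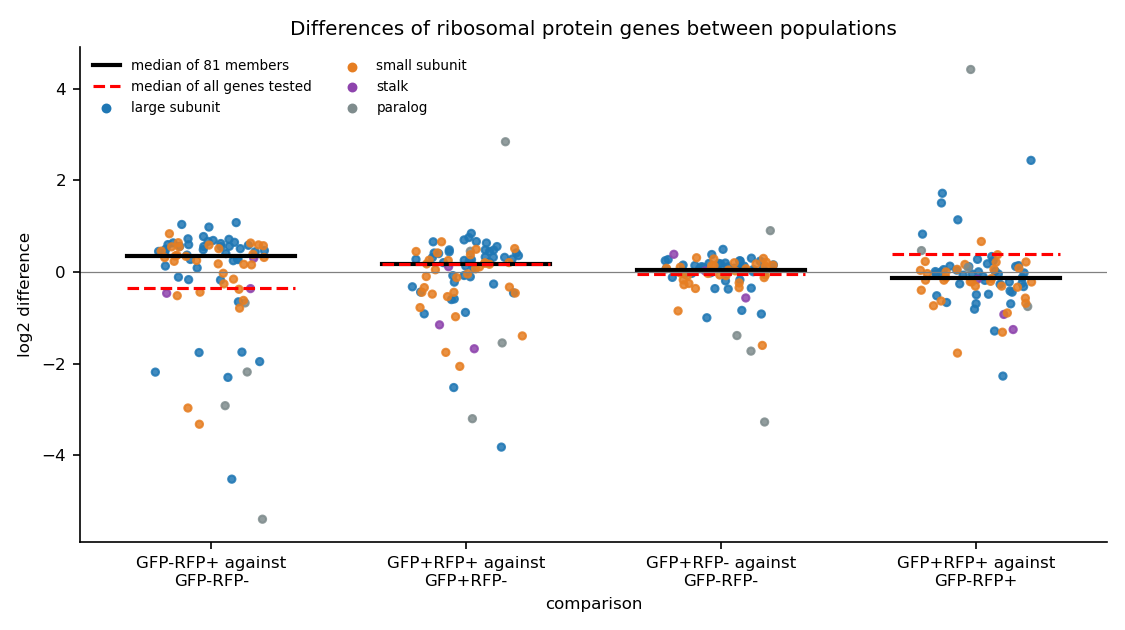
Log2 difference of each of the 81 tested members in the 4 pairwise comparisons, coloured by role; solid bars give the members' median and dashed bars the median of all genes tested. Most members lie within 1 of 0 in each comparison, and the far points are members with isolated low arrays and paralogs.

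By role, the median difference between GFP-RFP+ and GFP-RFP- cells was 0.47 for large-subunit members (33 of 43 above 0) and 0.31 for small-subunit members (21 of 31 above 0). Among GFP+ cells, RFP+ against RFP-, the medians were 0.27 and 0.05. For the IL-2 reporter they were 0.08 and 0.02 among RFP- cells, then -0.04 and -0.18 among RFP+ cells. Both subunits lay on the same side of 0 in each of these 4 comparisons. The scaling subtracts the same value from both on an array, so the shared side gives no support for a direction. The median standard error of a member (0.34 or 0.36) is that of a single gene. It does not measure the gap between the subunit medians, which was not tested.

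The stalk proteins, which recruit the elongation factors to the ribosome, did not stand together. Rplp0, the base of the stalk, read 1.36, 1.28, 0.95, 1.59 and 1.01 on GFP-RFP- arrays and 1.17, 1.43, 1.01, 2.14 and 1.94 on GFP-RFP+ arrays, a difference of 0.30 ± 0.36 (SE, adjusted p = 0.65, limma). All 4 populations overlapped in Rplp0. Rplp1 read 1.66, -0.50, 0.37, 1.8 and 1.33 on GFP-RFP+ arrays and -0.75, 0.00, 0.49 and -1.04 on GFP+RFP+ arrays. Its difference was -1.26 ± 0.50 (SE, adjusted p = 0.851, limma) between them and -1.15 ± 0.50 (SE, adjusted p = 0.254, limma) between GFP+RFP+ and GFP+RFP- cells. Rplp2 had differences from -1.67 to 0.38 in the 4 comparisons, with adjusted p of 0.395 or more. Its lowest reading was -4.94 on GFP+RFP+ replicate 5.

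Rps6, the small-subunit protein phosphorylated by S6 kinase downstream of mTORC1, read 2.51, 2.23, 2.49, 2.63 and 2.41 on GFP-RFP- arrays and 2.32, 2.30, 2.46, 3.05 and 2.68 on GFP+RFP- arrays. On GFP-RFP+ arrays it read 2.48, 3.18, 2.51, 3.11 and 2.57, and on GFP+RFP+ arrays 1.19, 2.99, 2.99 and 2.68. The populations overlapped in every pair, and the differences ran from -0.31 to 0.31. Rps27a, made as a fusion with ubiquitin, lay higher in GFP-RFP+ (3.02 to 3.94) than in GFP-RFP- cells (2.65 to 2.84) without overlap, by 0.57 ± 0.32 (SE, adjusted p = 0.302, limma). Over its 3 probes this difference ran from -0.56 to 0.57. Rpl5 and Rpl11, which with 5S ribosomal RNA bind Mdm2 and so stabilise p53, differed by 0.56 ± 0.34 and -0.18 ± 0.42 (SE) in that comparison, with adjusted p of 0.34 and 0.84 (limma). Rps3, which also partners the NF-kB subunit p65, differed by -0.62 ± 0.55 (SE, adjusted p = 0.524, limma), and GFP-RFP+ replicate 2 at -2.78 was its lowest array.

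Paralogs of ribosomal proteins replace the usual form in some tissues, such as Rpl3l in muscle and Rpl10l and Rpl39l in testis. Rpl3l was not well above background on any array. Rpl39l was well above background on GFP-RFP- replicate 1 only, at -6.32. Rpl10l was detected on 2 arrays with neither reporter, 1 with GFP alone, 0 with RFP alone and 2 with both. On GFP+RFP+ replicates 3 and 4 it read -3.36 and -0.11, and on replicates 1 and 5 -9.29 and -9.49. For a probe not well above background in a group, a fold is a lower bound, taken against the lowest signal well above background on each array of the dimmer group or the probe's own signal, whichever is higher. On these means the chosen Rpl10l probe was at least 9.10-fold higher in GFP+RFP+ than in GFP-RFP+ cells, carried by 2 arrays (fitted difference 4.42 ± 1.53 SE, adjusted p = 0.806, limma). The gene's other tested probe differed by 0.58 in this comparison, so the bound holds for the chosen probe only.

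Rpl22l1 and Rps27l were detected on every array with neither reporter and on part of the arrays of the other populations. Rpl22 is needed for the development of alpha-beta T cells, and Rpl22l1 is its paralog. Rpl22l1 was detected on all 5 arrays with neither reporter, 4 of 5 with GFP alone, 1 of 5 with RFP alone and 1 of 4 with both. It read -2.53, -1.90, -3.00, -0.69 and -6.96 on GFP-RFP- arrays and -8.58, -9.64, -2.26, -11.22 and -10.35 on GFP-RFP+ arrays. The difference was -5.39 ± 2.12 (SE, adjusted p = 0.156, limma), the lowest of all members. GFP-RFP+ replicate 3, the one detected array, lay inside the GFP-RFP- range. Rpl22 itself overlapped between these populations, with a difference of 0.27 ± 0.74 (SE, adjusted p = 0.86, limma).

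Rps27l, a paralog induced by p53, read -1.73, -3.40, -3.03, -1.51 and -2.84 on GFP-RFP- arrays. On GFP+RFP- arrays it read -1.2, -1.46, -11.13, -11.29 and -3.79. On GFP-RFP+ arrays it read -9.99, -10.24, -0.62, -8.23 and 1.99. Within each of the last 2 populations the readings fell far apart, so the differences of -3.27 ± 2.59 and -2.92 ± 2.59 (SE) from GFP-RFP- cells, with adjusted p of 1 and 0.527 (limma), are close to their errors. Rpl7l1 was well above background on 3 arrays with neither reporter, 3 with GFP alone, 1 with RFP alone and 0 with both. It was at least 1.19-fold higher in GFP+RFP- than in GFP+RFP+ cells (adjusted p = 0.723, limma).

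Other genes of translation were taken from lists chosen with earlier results of these data known, and are given by counts for GFP-RFP+ against GFP-RFP- cells, where 1.96% of all genes were called and the median of all genes was -0.35. Of 33 initiation factors tested, 3 were called lower in GFP-RFP+ cells and 0 higher, with a median difference of -3.18: Eif2b5 (-7.29), Eif3c (-8.28) and Eif3i (-6.20), with adjusted p of 0.0389, 0.0384 and 0.0316 (limma). Of 41 ribosome biogenesis genes, 2 were called lower, Gnl3 (-7.81) and Noc2l (-6.74), and the median was -2.94. Of 18 genes of mTOR, S6 kinase and Myc, 1 was called lower: Rictor, the defining subunit of mTORC2, at least 21.6-fold (adjusted p = 0.0294, limma), and the median was -3.02. Of 10 elongation and termination factors, 16 other TOP messages and 4 ribosomal proteins outside the name rule, 0 were called, with medians of -0.48, -1.01 and -0.10. These 3 medians turned positive with the 75th percentile over all probes, to 0.82, 0.30 and 1.21. In the other 3 pairwise comparisons 0 genes of these lists were called. Detection on all 19 arrays held for 7 of the 33 initiation factors and 7 of the 41 biogenesis genes. It held for 0 of the 18 genes of mTOR, S6 kinase and Myc. Large negative medians and differences here may therefore include readings near background. Calls over all genes fell from 396 to 27 without the 3 arrays under 30% detected, and the genes named here were not followed in that setting.

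Mitochondrial ribosomes and proteasomes were set beside the cytosolic ribosome as other protein complexes. Of 72 mitochondrial ribosomal protein genes tested, 3 were called lower in GFP-RFP+ cells and 0 higher, with a median of -3.44, and of 37 proteasome subunit genes 3 were called lower and 0 higher, with a median of -2.64, beside the 1.96% called among all genes. Detection on all 19 arrays held for 6 of the 72 and 9 of the 37, against 73 of 81 ribosomal protein genes. The medians of the initiation factors, ribosome biogenesis genes, mitochondrial ribosomal proteins and proteasome subunits were below 0 under all 8 ways of processing computed for lists, the reported one included, and among genes of each list detected on all arrays they were -1.05, -0.97, -0.81 and -0.77. The difference between these lists and the ribosomal protein genes was not tested.

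Sequence upstream of the members was taken from RefSeq (GRCm38.p6), which holds 74 promoters of 62 members among 32851 promoters. A TOP start, here a C at the annotated start followed by 4 bases that are each C or T on the sense strand, occurred in 13 of the 74 (17.6%), beside 2.5% of all promoters. The letters CCGGAAG, the core bound by ETS factors, occurred on either strand of the promoter window in 35.1% of member promoters and 8.86% of all, and CACGTG, the E-box of Myc, in 10.8% and 7.15%. A match is a description of the letters, and an annotated start can differ from the one used in these cells. Of the 13, 3 are shown from 20 bases before to 20 after the start, with the pyrimidine run from the start in capitals, to set beside their values above.
Rps6, minus strand: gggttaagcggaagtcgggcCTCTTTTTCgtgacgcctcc
Rps10, minus strand: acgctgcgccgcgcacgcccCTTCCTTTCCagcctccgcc
Rplp2, plus strand: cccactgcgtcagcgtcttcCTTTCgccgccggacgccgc
The run is 9 bases in Rps6, 10 in Rps10 and 5 in Rplp2. Over the arrays the chosen probe of Rps6 read from 1.19 to 3.18, that of Rps10 from -9.41 to 0.12 and that of Rplp2 from -4.94 to 1.18.

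The genes most like 3 members were found by Pearson r over the 19 arrays among 5404 genes detected on all of them. For Rps6 the first was its look-alike printed above (0.98), and the second (0.97) was another look-alike of its probe. The rest (0.965, 0.943 and 0.901) had no gene symbol. For Rplp0 the first was again its look-alike (0.987), and the only named gene among the top 5 was Rps28 (0.761). For Rpl22 the first was Idh3g (0.824), a subunit of mitochondrial isocitrate dehydrogenase, and the second (0.785) was a look-alike of the Rpl22 probe. The rest (0.773 to 0.761) had no gene symbol. Another look-alike probe, named Gm13196, followed the Rpl22 probe at 0.892, above Idh3g, and is not among the genes ranked here. These are descriptions over arrays that share groups and total signal.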

How the data were processed

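Sorted CD4 T cells were measured on 19 one-colour Agilent arrays. Per the labels' protocols, RNA was column-purified, and cDNA made from mRNA was amplified by a global PCR before Cy3 labelling. Per the file headers, Feature Extraction 10.7.3.1 made the processed signals, linear intensity values with background subtracted and no scaling between arrays. The flags marking a probe as well above background, saturated or not uniform, of no numerical unit, are deposited beside them. The authors' deposited series values, on a log2 scale, served as an alternative; the sources used here do not give their normalization or centring, and each array's column correlated with its log2 scanner signal at 0.949 or more.

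Non-uniform and outlier spots were left out (3296 over all arrays, none of a member), repeated spots were averaged, and signals were scaled as the report describes, since no array had 50% of its probes well above background. No probe was saturated. Gene names came from RefSeq accessions for 27235 probes and from the files for 28446; members were chosen by the file's name. limma 3.58.1 (R 4.3.3, with version 1.17.8 of data.table) fitted 4 groups with empirical Bayes moderation and 5 contrasts, with Benjamini-Hochberg adjustment over 20252 genes well above background on at least 4 arrays. Tables and figures used Python 3.11.15, pandas 2.3.3, numpy 2.4.6 and matplotlib 3.10.9. The fit was tested on simulated data. The number of arrays limits precision.

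The members, gene lists and alternatives were chosen with earlier results of these data known. Members named are the 5 highest and 5 lowest differences of each pairwise comparison, the 8 brightest and 8 dimmest probes, members not tested, paralogs, and Rplp0, Rplp1, Rplp2, Rpsa, Rps27a, Rps6, Rpl22, Rpl5, Rpl11, Rps19 and Rps3; Rps21, Rpl17, Rpl28, Rpl29 Rps13, and the members counted without overlap or with a probe on another chromosome were named after their values were seen. Some members enter the counts but are not reported here by name. Replicate numbers, which follow the letter M in the sample titles, were shared between groups. Deviations of same-numbered arrays over all tested genes correlated at -0.079 to 0.093 (27 pairs, 0 over 0.1), and the numbers were not used as pairs. Most of these genes were not well above background on every array, so correlations near 0 do not exclude pairing. A fit with the number as a block is given below.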

Additional observations from a re-analysis of the deposited data

Results flagged for a closer look

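Within each population, an array was singled out where its gap to the nearest other array, as a share of the population's range, exceeded Dixon's critical value. Chance singles out about 1 in 20 groups, and 168 groups of values were examined, of which 21 were singled out: 11 with neither reporter, 2 with GFP alone, 7 with RFP alone and 1 with both. All values are log2 levels unless stated otherwise.

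Low single arrays of GFP-RFP+ cells were Rpl23a on replicate 1 (-9.95), and Rpl27 (-7.59), Rpl18 (-6.73) and Rps3 (-2.78) on replicate 2. Rps16 was low on replicate 3 (2.35). High ones were Rps19 on replicate 2 (1.79) and the paralog Rpl7l1 on replicate 4 (-3.64). Replicate 2 held 4 of these 7 values.

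In GFP+RFP- cells Rps10 was low on replicate 4 (-7.4) and Rpl10l high on replicate 3 (-4.85), and in GFP+RFP+ cells Rpl11 stood apart on replicate 5 (0.51).

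The GFP-RFP- arrays repeat closely, so small gaps stand out there. Replicate 5 was low for Rps10 (-2.36), Rpl22 (-1.56) and Rpl37 (-0.65). Replicate 4 was high for Rps26 (3.16), Rps16 (3.07) and Rplp1 (1.89). Replicate 2 was low for Rps27a (2.65) and Rpl23a (2.15), and replicate 3 for Rps14 (-0.18). Replicate 1 was the one array with Rpl39l well above background (-6.32), and it had 81 members detected where the other GFP-RFP- arrays had 80.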

How the results depend on the processing

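The number of called members and their median difference were recomputed under 39 settings, 19 of which leave out 1 array. In GFP-RFP+ against GFP-RFP- cells, called members numbered 8 after normexp, 14 with the 75th percentile over all probes, 4 among genes detected on all arrays, 9 with a trended robust prior, 1 within slide 1 (Rpl7l1, lower) and 6 without scaling (lower). The median was 1.645 with the percentile over all probes, -0.17 after quantile normalization, -0.164 in the authors' series values, -0.052 with the mean of probes and -0.848 without scaling. In GFP+RFP+ against GFP+RFP- cells, 1 member (Rpl13a, higher) was called after normexp and 1 (Rpl13a) among genes detected on all arrays, and 6 (lower) without scaling. Its median was 0.738 with the percentile over all probes, -0.446 with median centring, -0.353 after quantile normalization, -0.339 in the series values, -0.17 within slide 3 and -1.077 without scaling. With the percentile over all probes the medians were 0.34 in GFP+RFP- against GFP-RFP- cells, -0.576 in GFP+RFP+ against GFP-RFP+ cells and -0.895 for the interaction. Median centring gave -0.645 and -0.599 for the last 2, no scaling -0.438 for the former, and slide 3 alone -0.574 for the interaction. The causes were not tested. No scaling and the scan run as a block were chosen after seeing the data.

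Leaving out each array in turn called 0 to 0 members in every comparison. The medians then ran from 0.28 to 0.438, from 0.012 to 0.264, from -0.042 to 0.103, from -0.25 to -0.02 and, for the interaction, from -0.245 to -0.059. With the replicate number as a block, 0 members were called in each comparison and the median in GFP-RFP+ against GFP-RFP- cells was 0.34; calls over all genes went from 396 to 214 and from 45 to 6 in the comparisons by Foxp3 reporter.

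In the first of these comparisons, calls over all genes moved from 396 to 4436 after normexp, 3699 with the percentile over all probes, 623 with median centring, 3244 after quantile normalization, 3360 in the series values, 1982 without scaling, 611 of 5405 genes detected on all arrays, 1202 with slide as a block, 1111 with array weights, 781 with a trended robust prior, 5 with percent detected as a covariate and 27 without the 3 arrays under 30% detected. In GFP+RFP+ against GFP+RFP- cells they moved from 45 (18 higher) to 4599 (4326 higher) after normexp, 750 among genes detected on all arrays, 1565 with array weights, 339 with a trended robust prior, 241 (0 higher) without scaling, 118 with slide as a block, 106 without a filter, 79 with only these groups, 29 after quantile normalization, 25 in the series values, 8 with the percentile over all probes or the covariate, and 6 with the scan run as a block. Of 5740 recomputed differences of named members, 511 changed sign and 32 were newly called. No saturated probe existed to leave out. Levels near background limit the paralogs.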
